A study of Homo sapiens and Mus musculus with 25 samples.

Results

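Distal peaks of the corrected H3K4me3 list of K562 cells were examined, meaning peaks with both ends more than 5 kb from every protein-coding transcription start site (TSS) of GENCODE release 44. The corrected list held 48459 peaks on chromosomes 1 to 22 and X, and 36166 of them (74.6%) met this rule. The other 12293 peaks, which lay nearer to a coding TSS, are called the other corrected peaks. The members were chosen by their peak call in the corrected list, so their number and their values in that list describe the choice and were not tested. At the distance limit the 1207 peaks 5 to 6 kb from a coding TSS had a median authors' value of 9.53, and the 1371 peaks just outside it, 4 to 5 kb away, had 9.58.

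Trimethylation of lysine 4 of histone H3 (H3K4me3) is written by SET1 and MLL complexes and classically marks the starts of active genes, often at CpG islands. Monomethylation (H3K4me1) is the classical mark of enhancers, and dimethylation (H3K4me2) is found at both. A distal H3K4me3 peak is therefore commonly read either as the start of an unlisted or non-coding transcript, or as an active enhancer.

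K562 is an established cell line from a chronic myeloid leukaemia, with erythroid features. All the groups used came from this untreated line and were prepared by internally calibrated ChIP-seq, in which barcoded nucleosomes of known modification are spiked in before the immunoprecipitation. The peaks were set against 8 H3K4me3, 4 H3K4me2 and 5 H3K4me1 antibody lists, 1 list per antibody. The authors computed the corrected list from the Abcam ab12209 and ab8580 (H3K4me3), ab7766 (H3K4me2) and ab8895 (H3K4me1) libraries, so tests used only the other 6 H3K4me3, 3 H3K4me2 and 4 H3K4me1 lists. The erythroid promoters of GATA1, TAL1, TFRC, HBG1 and HBE1 held a peak in 8 of 8 H3K4me3 lists and that of LMO2 in 7, while the B-cell gene PAX5 held one in 0 and the T-cell gene CD3D in 7. Read depth behind the lists is unknown, and a list without a peak does not show that the mark is absent.

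The sequences of 3 distal peaks are given as examples, with CpG dinucleotides in capitals, on the plus strand of hg38. The first covers the start of PMS2P3, a non-coding transcript, and the second lies 15.5 kb from RFC2 with no annotated non-coding start near it. Both were held by all 8 H3K4me3 lists. The third lies nearest to BCL11A, a regulator of blood cell identity, and was held by 1 of the 8 lists.
PMS2P3 peak, chr7:75527701-75528000: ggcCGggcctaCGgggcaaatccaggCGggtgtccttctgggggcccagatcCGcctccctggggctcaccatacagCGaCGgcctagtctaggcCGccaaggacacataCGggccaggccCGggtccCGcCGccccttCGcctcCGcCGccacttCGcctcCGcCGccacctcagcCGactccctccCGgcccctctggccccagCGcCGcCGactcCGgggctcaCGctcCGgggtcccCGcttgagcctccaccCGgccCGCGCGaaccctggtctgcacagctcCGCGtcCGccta
RFC2 peak, chr7:74269939-74270171: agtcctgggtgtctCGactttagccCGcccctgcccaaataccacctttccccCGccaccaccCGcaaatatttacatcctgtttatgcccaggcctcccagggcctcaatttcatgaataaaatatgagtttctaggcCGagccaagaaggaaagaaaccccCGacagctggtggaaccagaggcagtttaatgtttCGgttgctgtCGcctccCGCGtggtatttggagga
BCL11A peak, chr2:60630936-60631143: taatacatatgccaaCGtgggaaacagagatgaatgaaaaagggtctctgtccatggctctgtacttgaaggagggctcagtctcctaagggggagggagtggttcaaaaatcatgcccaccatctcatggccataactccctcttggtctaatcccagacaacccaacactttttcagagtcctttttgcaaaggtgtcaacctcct
The PMS2P3 window held 33 CpG dinucleotides in 300 bases and the RFC2 window 10 in 233, against 1 in the 208 bases of the BCL11A peak. In 300 bases around each midpoint the counts were 33, 12 and 4. The median was 17 for distal peaks held by all 6 lists not used in the correction and 3 for those held by 0. Single peaks depart from this: those nearest to MBOAT2 and ELAPOR2, held by all 8 lists, had 2 and 3.

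The first question was how many of the H3K4me3 lists held each distal peak, where a list held a peak if at least 1 base overlapped. Of the 36166 distal peaks, 2583 (7.14%) were held by 0 of the 8 lists, 30666 (84.8%) by exactly 1, 2622 (7.25%) by 2, and 181 by all 8. Abcam ab8580, one of the source libraries, was the sole holder of 30579 of them. In the whole corrected list, 80.1% of peaks were held by 1 list and 5.38% by all 8. Only 114 distal peaks were held by 3 to 7 lists.

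Against the 6 H3K4me3 lists that the correction had not used, 33162 distal peaks (91.7%) were held by 0 lists and 187 (0.517%) by all 6. Among the other corrected peaks, 8630 (70.2%) were held by 0 and 2426 (19.7%) by all 6, and in the whole corrected list these shares were 86.2% and 5.39%. Between the extremes, 2707 distal peaks were held by 1 list and 110 by 2 to 5. EMD Millipore 07-473, whose list is the longest of these 6 with 233923 peaks, accounted for 2704 of the 2707. The plot of lists holding each peak shows more distal peaks held by all 6 lists than by any number between 2 and 5.

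**Figure D1:**
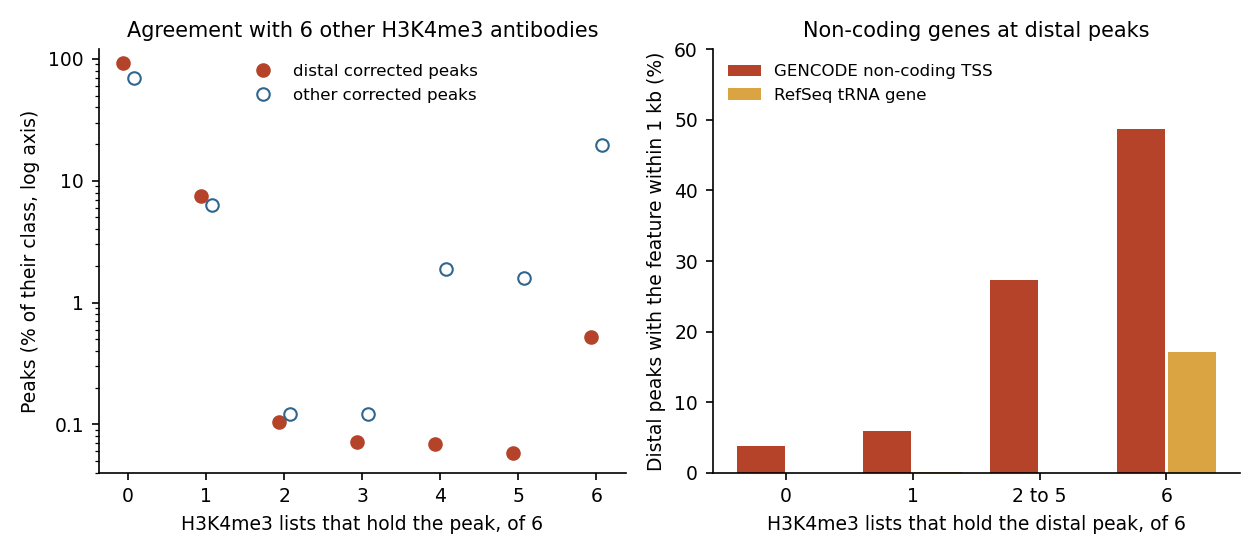
Left, percent of distal and of other corrected peaks (y axis, log scale) held by 0 to 6 of the H3K4me3 lists not used in the correction (x axis). Right, percent of distal peaks with a GENCODE non-coding TSS or a RefSeq tRNA gene within 1 kb, by lists holding them. Distal peaks held by all 6 lists were 0.517% of their class against 19.7% of other peaks, and 48.7% of them had a non-coding TSS.

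List by list, the share of distal peaks held was 0.553% for EpiGentek A-4033-050, 0.594% for Diagenode C15410003, 0.622% for Thermo Fisher PA5-40086, 0.702% for Abclonal A2357, 0.816% for EMD Millipore 05-745R and 8.29% for EMD Millipore 07-473. The same lists held 19.9%, 21.3%, 23.2%, 23.3%, 23.4% and 29.8% of the other corrected peaks, and 5.46%, 5.84%, 6.34%, 6.44%, 6.56% and 13.7% of the whole corrected list. EMD Millipore 07-473 stood apart in both classes, and the other 5 lists lay close together. The mean was 1.93 ± 3.12% of distal peaks and 23.5 ± 3.39% of other peaks (SD, n = 6 antibodies), a difference of -21.5 ± 1.34 percentage points. All 6 lists differed in this direction. The exact two-sided sign-flip permutation test gave p = 0.0312, the smallest that 6 lists allow. After Benjamini-Hochberg adjustment over the 5 tests made it was 0.0781, which misses the threshold of 0.05. The lists themselves were denser near coding TSSs. They covered 3.42 to 14.2% of the bases within 5 kb of one and 0.129 to 4.15% of the bases farther away. The test cannot separate this density from a trait of the distal peaks, and its part was not tested.

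The source libraries, which made the list, differed from each other. Abcam ab8580 held 92.6% of distal and 95.5% of other corrected peaks, and 93.3% of all. Abcam ab12209 held 0.589% of distal and 23.1% of other peaks, and 6.3% of all. The H3K4me1 source ab8895 held 70.0%, 89.3% and 74.9% of distal, other and all peaks, and the H3K4me2 source ab7766 held 46.9%, 66.1% and 51.8%. The ab8580 list covers 23.6% of the bases more than 5 kb from coding TSSs and the ab12209 list 0.106%.

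**Figure D2:**
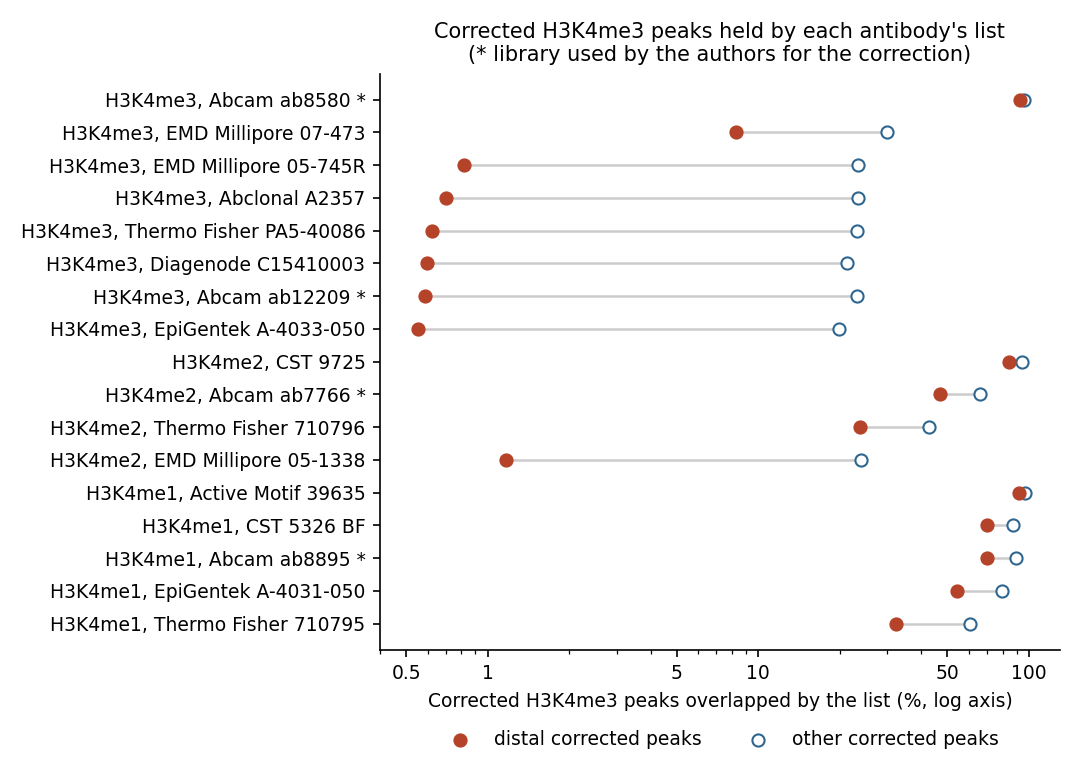
Percent of corrected H3K4me3 peaks overlapped by each antibody's list (x axis, log scale), for distal peaks (filled) and other corrected peaks (open). Of the H3K4me3 lists, Abcam ab8580 at 92.6% and EMD Millipore 07-473 at 8.29% held the most distal peaks, and the other 6 lie between 0.553% and 0.816%.

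Seen from the other side, few of the antibodies' own distal peaks were in the corrected list. Distal corrected peaks overlapped 4.28% of the 4584 distal peaks of EpiGentek A-4033-050, 3.52% of 6025 of Diagenode C15410003, 6.48% of 3486 of Thermo Fisher PA5-40086, 2.26% of 11009 of Abclonal A2357, 1.69% of 17200 of EMD Millipore 05-745R and 1.68% of 179104 of EMD Millipore 07-473. For the source libraries the shares were 7.31% of 2885 distal peaks of ab12209 and 5.23% of 581933 of ab8580. Within 5 kb of coding TSSs, between 6.60% (EMD Millipore 07-473) and 28.4% (EpiGentek A-4033-050) of a list's peaks overlapped the corrected list. In each of these lists the share was thus lower away from coding TSSs than near them.

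The second question was whether non-coding TSSs account for the distal peaks. GENCODE lists 72473 non-coding TSS positions of 42092 genes on these chromosomes. A non-coding TSS lay within 1 kb of 1528 distal peaks, which is 4.22% (95% exact binomial interval 4.02 to 4.44%, counting error only), against 10.4% of the other corrected peaks and 5.8% of all. Measured at the midpoint, 3.69% of distal peaks were within 1 kb of a non-coding TSS, beside 2.94% of all bases more than 5 kb from coding TSSs, 3.71% of distal peaks of the corrected H3K4me2 list and 3.03% of those of the corrected H3K4me1 list. Among the H3K4me3 lists' own distal peaks the midpoint share was 3.22% for ab8580 and 4.79% for EMD Millipore 07-473. It was 27.8% for Thermo Fisher PA5-40086, 30.5% for ab12209 and 11.6 to 16.5% in the remaining lists. For 34638 distal peaks of the corrected H3K4me3 list no non-coding TSS was found within 1 kb.

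The share with a non-coding TSS differed by how many of the 6 lists held the peak. It was 3.75% of the distal peaks held by 0 lists, 5.98% of those held by 1, 27.3% of those held by 2 to 5 and 48.7% (91 of 187) of those held by all 6. The other corrected peaks rose as well, from 4.21% of those held by 0 lists to 29.8% of those held by all 6. Among the 91, 82 had a lncRNA start, 19 a pseudogene start and 9 a small RNA start, and a peak can have more than 1 kind. Over whole classes, a lncRNA start lay within 1 kb of 43.9% of the 187 peaks and of 1.91% (633) of the 33162 held by 0 lists. The starts lay inside 44.9% of the peaks held by all 6 lists and inside 0.669% of those held by 0. Median widths of these 2 classes were 1206 and 259 bases, and the part of width was not tested.

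By list, EpiGentek A-4033-050 held 6.09% of distal peaks with a non-coding TSS and 0.309% of those without, and Diagenode C15410003 held 6.48% and 0.335%. Thermo Fisher PA5-40086 held 7.13% and 0.335%, Abclonal A2357 7.33% and 0.410%, EMD Millipore 05-745R 7.92% and 0.502%, and EMD Millipore 07-473 18.5% and 7.84%. The mean difference, with minus without, was 7.28 ± 1.73 percentage points (SD, n = 6 antibodies), and all 6 were positive. The exact two-sided sign-flip permutation test again gave p = 0.0312, the smallest possible, and an adjusted p of 0.0781. Peaks with a non-coding TSS were also wider, with a median of 279 bases against 262, and wider peaks have more chance to overlap a list; the part of width in the difference was not tested.

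The distal peaks with the highest values among those with a non-coding TSS and held by all 6 lists lay on chromosomes 1, 6 and 7. The PMS2P3 peak (chr7:75527102-75528600) covers the start of a transcribed pseudogene relative of the mismatch repair gene PMS2 and is 34.8 kb from SPDYE5, the nearest coding TSS. Its corrected value was 64.3, and at its midpoint the authors' value was 62.0 in Abclonal A2357, 44.4 in EMD Millipore 05-745R, 50.5 in EMD Millipore 07-473, 49.0 in Thermo Fisher PA5-40086 and 43.3 in the source library ab12209. The next peaks covered or adjoined the lncRNA ENSG00000289059, 14.6 kb from the heat shock gene HSPB1 (value 62.3), LINC01003, 26.4 kb from the H3K4 methyltransferase gene KMT2C (60.4), and LINC01703, 19.1 kb from the histone gene H3-3A (59.8). LINC00174 (58.2) and ENSG00000272501, 16.2 kb from POU5F1 (57.6), completed the group. All 6 peaks were in 8 of 8 H3K4me3 lists, and 6 of 6 were overlapped by both a corrected H3K4me1 and a corrected H3K4me2 peak.

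A group of 96 distal peaks was held by all 6 lists and had no non-coding TSS within 1 kb, and 59 of them had none within 10 kb. The 6 with the highest values among the 59 lay 15.5 kb from RFC2, a clamp loader subunit of DNA replication (value 54.7), 9.88 kb from MMEL1 in an intron of a coding gene (52.4), and 46.3 kb from SND1 (50.4). The others were 19.1 kb from ELAPOR2 (48.3), 19.4 kb from DHX35 (48.3) and 18.6 kb from MBOAT2 (46.7). At the midpoint of the RFC2 peak the values were 26.3 in Abclonal A2357, 27.5 in EMD Millipore 05-745R, 22.9 in EMD Millipore 07-473 and 16.5 in Thermo Fisher PA5-40086. All 4 values were below its corrected value, but each belongs to that list's own peak over the midpoint. No header names the scale, so values of different lists may not be comparable. For the ELAPOR2 peak the same lists gave 61.2, 45.7, 49.2 and 62.2. RefSeq gene starts added 4 of the 96 peaks to those near a start. RefSeq starts on chromosome 8 were not used here.

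Transfer RNA genes were looked at after the positions of these peaks had been seen, and the GENCODE annotation used here lists 0 of them on these chromosomes. RefSeq lists 443 tRNA genes on these chromosomes. A tRNA gene lay within 1 kb of 32 of the 187 distal peaks held by all 6 lists (17.1%), of 10 of the 33162 held by 0 (0.0302%) and of 3 of the 2707 held by 1 (0.111%). Among the other corrected peaks held by all 6 lists, 16 of 2426 (0.660%) had one. Of the 96 peaks without a non-coding TSS, 24 had a tRNA gene, so a non-coding TSS or a tRNA gene lay within 1 kb of 115 of the 187 peaks (61.5%) and of 1255 of the 33162 held by 0 lists (3.78%). For 72 peaks held by all 6 lists neither was found.

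tRNA genes are transcribed by RNA polymerase III from promoter elements inside the gene, the A box and the B box. Of the 32 peaks with a tRNA gene, 27 were on chromosome 6, and 26 of these lay between 26 and 29 Mb, in the large tRNA gene and histone gene region next to the HLA locus. Chromosome 6 also holds 155 of the 443 RefSeq tRNA genes. The 10 Mb window from 20000001 on chromosome 6 held 222 distal peaks, of which 32 were held by all 6 lists. The 3 sequences below are tRNA genes at the 2 highest-valued of these peaks, in the gene's own direction, with the B box word GGTTCGA in capitals; positions are hg38, and the genes are RefSeq's (GRCh38.p14).
TRS-AGA2-4, chr6:27503039-27503120, plus strand: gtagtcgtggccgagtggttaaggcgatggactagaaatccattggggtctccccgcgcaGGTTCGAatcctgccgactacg
TRA-TGC1-1, chr6:28789770-28789841, minus strand: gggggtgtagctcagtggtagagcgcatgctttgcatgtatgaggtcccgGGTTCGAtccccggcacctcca
TRF-GAA1-1, chr6:28790722-28790794, minus strand: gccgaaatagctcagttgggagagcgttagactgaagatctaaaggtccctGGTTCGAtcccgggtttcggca
The word was found in 56.9% of the 443 tRNA genes. On either strand it was in 0.860% of RefSeq promoter windows of 300 bases, 2.67% of the 187 peaks and 0.317% of the peaks held by 0 lists. Peaks were searched in their central 300 bases, or over their whole length where narrower. Median widths were 1206 bases for the 187 peaks and 259 for those held by 0 lists, so the searched lengths differed. Near-identical tRNA genes can share reads. Separately, the central 32-base word of 37.5% of the 32 peaks occurred more than once in the genome sequence searched. This word need not lie in the tRNA gene. TRS-AGA2-4 and TRS-AGA2-2 have the same sequence, yet the central word of each one's peak occurred 1 time. That of the peak at TRA-TGC1-1 and TRF-GAA1-1 occurred 8 times. Whether tRNA gene similarity has a part in the 37.5% was not tested.

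The peak at TRS-AGA2-4 (chr6:27502154-27503739) is 29.04 kb from ZNF184, had a corrected value of 54.5, and at its midpoint had 45.8 in Abclonal A2357, 37.9 in EMD Millipore 05-745R, 28.1 in EMD Millipore 07-473 and 53.2 in Thermo Fisher PA5-40086. At TRA-TGC1-1 and TRF-GAA1-1 (chr6:28789003-28791344) the corrected value was 46.9, and the same 4 lists gave 59.8, 48.6, 54.6 and 44.9. Over the 32 peaks the corrected value had a median of 37.2 and ranged between 24.6 and 54.5, and the median width was 1609 bases. Of the 346 tRNA genes more than 5 kb from coding TSSs, 174 had all 6 lists within 1 kb, and 45 of these 174 had a corrected peak there. Of the 110 tRNA genes with 0 of the 6 lists, 8 had a corrected peak.

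Distal peaks differed in value, width and base composition by how many lists held them. Since the corrected value and the width come from the same list as the choice of members, they are given without a test. The median authors' value was 9.32 for distal peaks held by 0 lists, 10.7 for those held by 1, 20.4 for those held by 2 to 5 and 37.7 for those held by all 6. The other corrected peaks had 9.35 when held by 0 lists and 45.4 when held by all 6. Median widths were 259, 321, 390.5 and 1206 bases for the distal classes, in the same order, and 270 and 1845 bases for the other peaks. A distal peak held by 0 lists thus had nearly the value and width of an other corrected peak held by 0 lists.

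**Figure D3:**
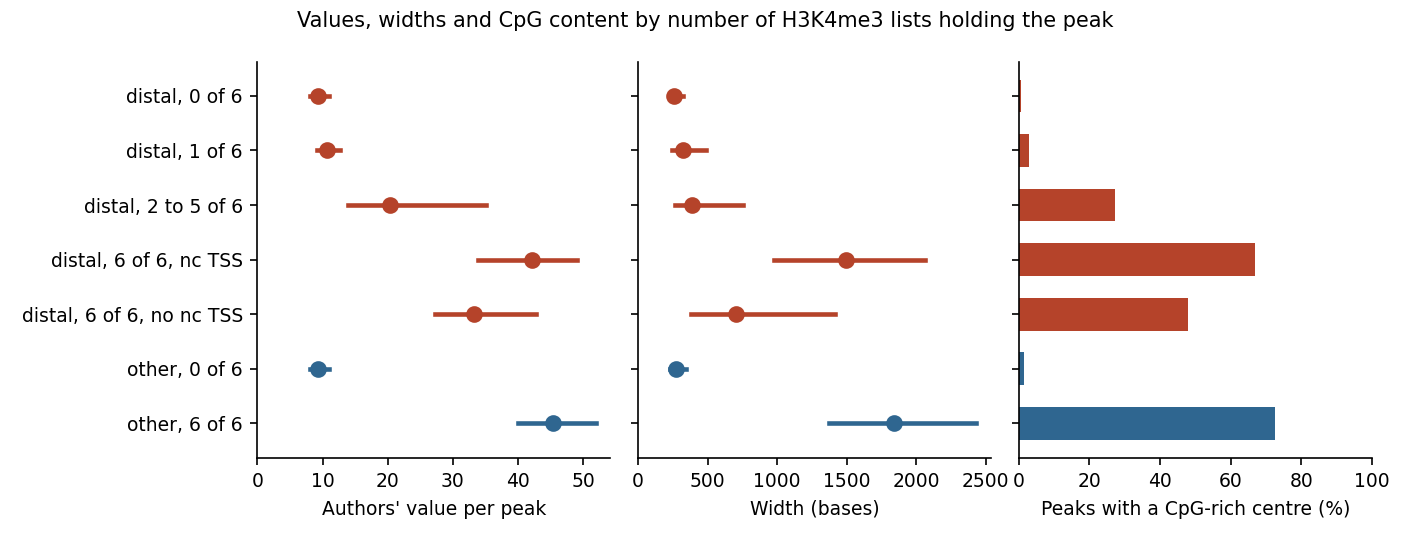
Authors' value (left) and width in bases (middle), with dots for medians and bars between the lower and upper quartile, and percent of peaks with a CpG-rich centre (right), for 5 distal classes and 2 classes of other corrected peaks. Distal peaks held by 0 lists have a median value of 9.32 and width of 259 bases, against 42.1 and 1499 bases for those held by all 6 with a non-coding TSS (nc TSS).

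The central 300 bases of a peak were called CpG-rich when GC content was at least 50% and the observed over expected CpG ratio at least 0.6. This held for 0.540% of distal peaks held by 0 lists, 2.88% of those held by 1, 27.3% of those held by 2 to 5 and 57.2% of those held by all 6. The share was 47.0% of RefSeq promoter windows and 72.5% of the other corrected peaks held by all 6. Within the distal peaks held by all 6, 67.0% of those with a non-coding TSS and 47.9% of those without were CpG-rich. Median GC was 45.7% for peaks held by 0 lists and 59.0% for those held by all 6, and the CpG count of the printed BCL11A window is of the low kind.

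Short words were searched on both strands of the central 300 bases. GGGCGG, the core recognised by Sp factors, was in 4.86% of distal peaks held by 0 lists, 44.9% of those held by all 6 and 45.0% of RefSeq promoter windows. AGATAA, the word recognised by GATA factors, was in 16.0% of peaks held by 0 lists, 8.02% of those held by all 6 and 10.3% of promoter windows. TGANTCA, the AP-1 and NF-E2 core, was in 9.33%, 5.35% and 7.68% of these 3 sets. The E-box CANNTG was in 83.3%, 66.3% and 68.7%, CCAAT, read by NF-Y, in 36.3%, 25.7% and 34.6%, and TATAAA in 19.5%, 7.49% and 11.5%. The word TTTAAA, searched as a control with no factor in mind, was in 18.8%, 9.09% and 12.3%, so the AT-rich words varied together with base composition, whose part in these shares was not tested. A word is a match of letters and not a bound site.

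The third question was whether distal corrected H3K4me3 peaks also carried the lower methylation states. The 4 H3K4me1 lists not used in the correction held 91.5% (Active Motif 39635), 70.2% (Cell Signaling Technologies 5326 BF), 54.1% (EpiGentek A-4031-050) and 32.3% (Thermo Fisher 710795) of distal peaks. The same lists covered 52.1%, 34.8%, 29.1% and 21.1% of the bases more than 5 kb from coding TSSs, and they held 92.8%, 74.6%, 60.5% and 39.4% of the whole corrected list. The 3 H3K4me2 lists held 84.5% (Cell Signaling Technologies 9725), 23.7% (Thermo Fisher 710796) and 1.17% (EMD Millipore 05-1338) of distal peaks, and covered 47.4%, 15.3% and 2.38% of the same bases. They held 86.9%, 28.6% and 6.93% of the whole corrected list. EMD Millipore 05-1338 was thus close to the narrow H3K4me3 lists, and the other 6 lists of the lower states held many more distal peaks than they did. A list of wide coverage overlaps more peaks of any kind, and its part was not tested.

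The difference in the share held between distal and other corrected peaks was then compared between targets. Distal minus other, it averaged -18.9 ± 10.3 percentage points over the 4 H3K4me1 lists, -17.1 ± 6.73 over the 3 H3K4me2 lists and -21.5 ± 1.34 over the 6 H3K4me3 lists (± SD). The exact permutation tests against H3K4me3 gave differences of 2.67 points for H3K4me1 (p = 0.657, adjusted p = 0.657) and 4.43 points for H3K4me2 (p = 0.214, adjusted p = 0.357). Shares near 0 and shares near 90% are hard to compare in percentage points. On a log2 ratio of the shares, chosen after seeing the data, distal over other lay 4.09 higher for H3K4me1 lists than for H3K4me3 lists (exact permutation adjusted p = 0.0238), and 2.76 higher for H3K4me2 lists (exact permutation adjusted p = 0.0476). The H3K4me3 lists averaged -4.55 on this scale. A list that covers much of the distal bases holds many distal peaks, which keeps its ratio near that of equal shares. The ratio therefore cannot separate the target from the coverage of its lists. The difference with minus without a non-coding TSS was 8.52 ± 5.25 points for the H3K4me1 lists and 7.28 ± 1.73 for the H3K4me3 lists, a difference of 1.24 points (exact permutation p = 0.610, adjusted p = 0.657). As a log2 ratio, with the same limit, this last difference turned to -3.49 (exact permutation adjusted p = 0.0238). H3K4me1 lists held 70.2 ± 20.5% of distal peaks with a non-coding TSS and 61.7 ± 25.3% of those without, while H3K4me3 lists held 8.90 ± 4.73% and 1.62 ± 3.05%.

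The authors' corrected H3K4me1 and H3K4me2 lists come from the same correction as the peaks, and are given as a description. A corrected H3K4me1 peak overlapped 73.5% of distal peaks, against 90.2% of other corrected peaks and 77.8% of all, and a corrected H3K4me2 peak overlapped 11.9%, against 31.2% and 16.8%. Neither overlapped 9235 distal peaks (25.5%), against 1115 (9.07%) of the other corrected peaks. Of the 187 peaks held by all 6 lists, 181 (96.8%) met a corrected H3K4me1 peak and 178 (95.2%) a corrected H3K4me2 peak, while 72.3% and 9.38% of the 33162 held by 0 lists did. The H3K9me3 list covers 97.1% and the H3K27me3 list 68.9% of the bases more than 5 kb from coding TSSs, and they overlapped 100% and 95.1% of distal peaks and 100% and 94.7% of all corrected peaks, so they do not separate the distal peaks.

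Distance from coding genes sorted the distal peaks further. A corrected H3K4me1 peak overlapped 84.5% of the 5183 peaks 5 to 10 kb from a coding TSS, 82.8% of 6347 at 10 to 20 kb, 79.3% of 8771 at 20 to 50 kb, 73.2% of 5678 at 50 to 100 kb, 61.4% of 8198 at 100 to 500 kb and 40.8% of 1989 beyond 500 kb. At least 1 of the 6 H3K4me3 lists held 10.2%, 10.5%, 10.5%, 8.33%, 4.33% and 3.27% of the peaks in these bins, where 13.8% of the whole corrected list was held. All 6 lists held 0.656%, 0.835%, 0.627%, 0.247%, 0.305% and 0.302%. Median values hardly moved, between 9.32 and 9.59.

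**Figure D4:**
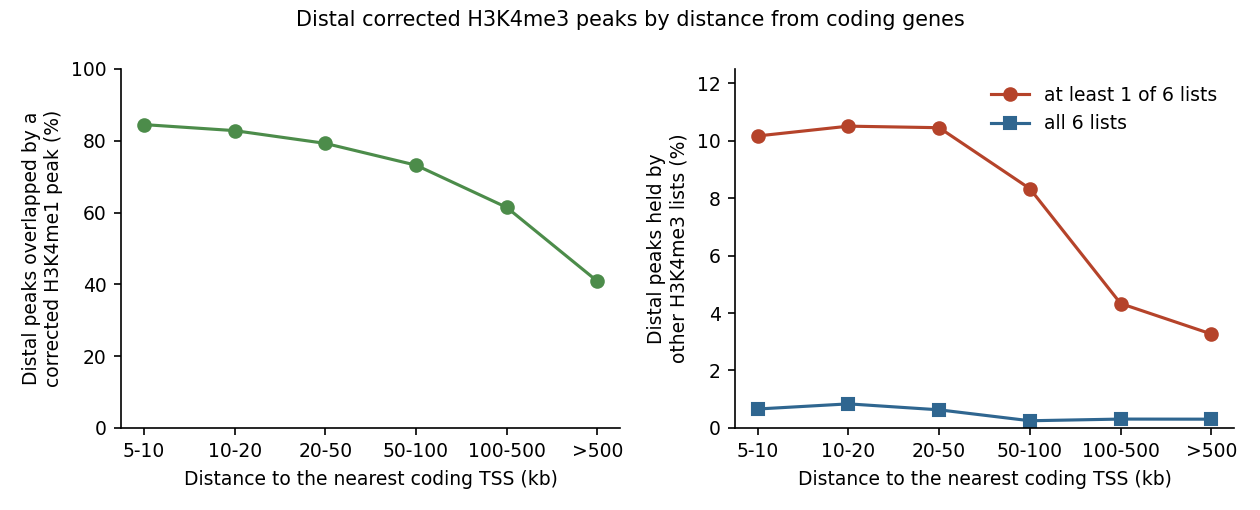
Left, percent of distal corrected H3K4me3 peaks overlapped by a corrected H3K4me1 peak, and right, percent held by at least 1 (circles) or all (squares) of 6 H3K4me3 lists, by distance to the nearest coding TSS in kb (x axis). Overlap with H3K4me1 was 84.5% in the nearest bin and 40.8% beyond 500 kb, and the share held by at least 1 list was 10.2% and 3.27%.

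Most distal peaks lay between genes or in introns. The midpoint of 14641 (40.5%) was intergenic, of 14508 (40.1%) in an intron of a coding gene, of 5328 (14.7%) in an intron of a non-coding gene, of 1102 (3.05%) in an exon of a coding gene and of 587 (1.62%) in an exon of a non-coding gene. Of the peaks held by all 6 lists, 46 (24.6%) were in a non-coding exon, against 1.44% of those held by 0.

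The distal peaks were spread unevenly over the chromosomes. Their density was 14.7 per Mb of sequence more than 5 kb from coding TSSs, with 36.1 on chromosome 7, 30.5 on chromosome 1 and 29.6 on chromosome 21, and 2.95 on chromosome 13, 1.59 on chromosome 14 and 0.573 on chromosome X. Chromosomes 1, 6 and 7 held 39.3% of distal peaks and 55.6% of those held by all 6 lists, on 19.2% of the bases. The window 150000001 to 160000000 of chromosome 7 was the fullest of 304 windows of 10 Mb, with 1010 distal peaks. In the list of Thermo Fisher PA5-40086 distal density was 1.68 per Mb on chromosome 7, 1.51 on chromosome 14 and 0.974 on chromosome X. In that of ab8580, a source library, it was 386, 31.2 and 14.3. The corrected list and that of ab8580 were both sparse on chromosomes 14 and X, and that of PA5-40086 was not on chromosome 14. K562 cells are aneuploid, and the part of copy number or depth in these densities was not tested.

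**Figure D5:**
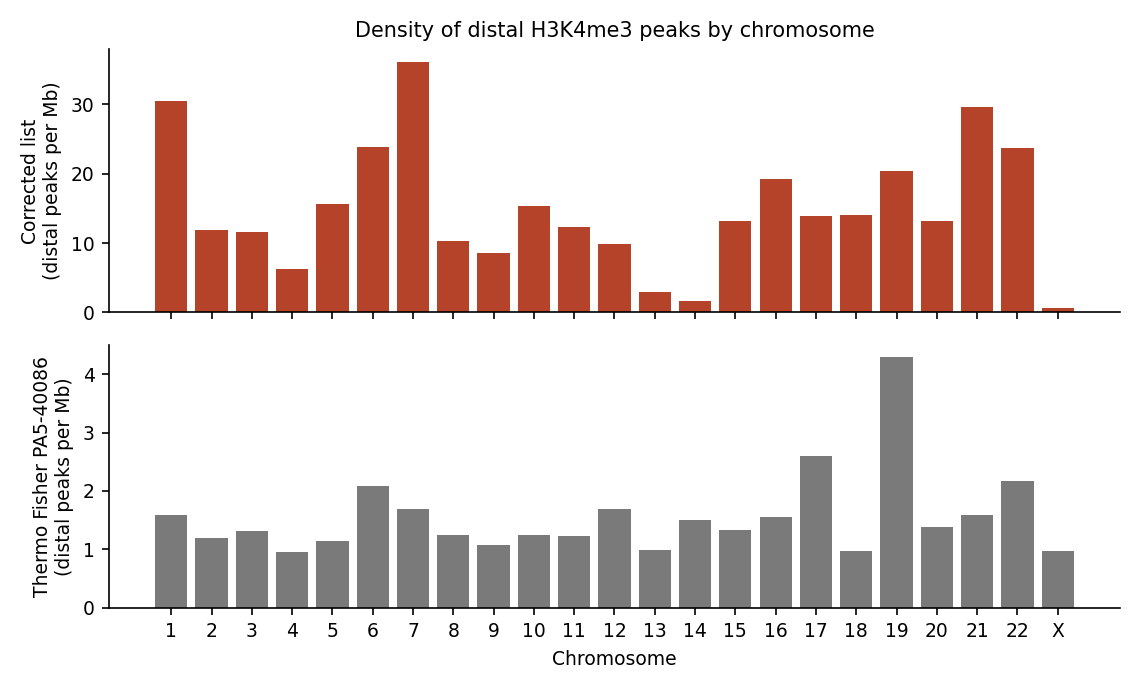
Distal peaks per Mb of sequence more than 5 kb from coding TSSs (y axis) by chromosome, for the corrected H3K4me3 list (top) and the Thermo Fisher PA5-40086 list (bottom). Density in the corrected list was 36.1 per Mb on chromosome 7 and 0.573 on chromosome X, while that of the antibody list was 1.68 and 0.974.

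Distal peaks near erythroid and leukaemia genes were counted by their nearest coding TSS. Of 36 erythroid genes, 9 (25.0%) were nearest to at least 1 distal peak, against 38.5% of all 19962 coding genes, and these 9 had 83 in all. Of the 83, 0 were held by all 6 lists, 7 (8.43%) were held by at least 1, and 77 by ab8580, while a corrected H3K4me1 peak overlapped 64 (77.1%). Over all genes 0.517% of distal peaks were held by all 6 lists, 8.31% by at least 1 and 92.6% by ab8580, and 73.5% met corrected H3K4me1. Among the erythroid genes, RUNX1, a transcription factor of blood stem cells, was nearest to 44 distal peaks, BCL11A, a repressor of fetal globin, to 21, the membrane anchor gene ANK1 to 6, LMO2 to 5, KIT to 3, and MYB, CA1 and CA2 to 1 each. Of the highest-valued peaks of 4 of these genes, 1 was held by ab8580 and by EMD Millipore 07-473, and 3, those of BCL11A (14.3), KIT (13.7) and MYB (12.9), were held by ab8580 alone. The KIT peak met neither corrected H3K4me1 nor H3K4me2.

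Of 12 leukaemia and growth genes, 6 (50.0%, against 38.5% of all coding genes) were nearest to at least 1 distal peak. They had 44 in all, of which 0 were held by all 6 lists, 5 (11.4%) by at least 1 and 43 by ab8580, and 42 (95.5%) met corrected H3K4me1. Over all distal peaks these 4 shares were 0.517%, 8.31%, 92.6% and 73.5%. CRKL, an adaptor of the BCR-ABL kinase, was nearest to 11, the cyclin gene CCND1 to 10, MYC to 9, BCR to 7, ABL1 to 6 and CCND2 to 1. The highest-valued peak of MYC, 115 kb away on chromosome 8, had a value of 17.4 beside a corrected H3K4me1 value of 28.5 and was held by ab8580 alone. That of CCND1, 128 kb away, had 15.3 and was held by ab8580 and EMD Millipore 07-473. The peak of CRKL (12.2) has a midpoint word that occurs 450 times in the genome. That of CCND2 (10.3) was in 0 of 8 lists.

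A list of 50 non-coding RNA genes gave a second view, and 47 of them are annotated as non-coding. A distal corrected peak lay within 1 kb of a TSS of 7 genes. MALAT1, an abundant nuclear RNA, had a peak of 8445 bases, the widest of all distal peaks, with a value of 42.1. MIR17HG, host of the miR-17-92 cluster, had one of 4216 bases and value 31.4, EPB41L4A-AS1 one of value 53.7, and LINC-PINT one of value 22.6. These 4 were held by 8 of 8 lists. The peaks at CCDC26 (9.00), MEG3 (22.3) and SNHG14 (9.02) were held by 0 of the 6 lists.

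Of the 47 genes, 28 had all 6 lists within 1 kb of a TSS, and 6 of the 28 had any corrected peak there. Restricted to genes with every TSS more than 5 kb from coding TSSs, 15 had all 6 lists and 4 of these had a distal corrected peak, which at CCDC26 is the one held by 0 of the 6. The other 11 had 0 corrected peaks within 1 kb of a TSS. They were NEAT1, PVT1, DANCR, SNHG6, SNHG8, SNHG12, SNHG15, SNHG16, MIR223HG and RN7SL2, each in 8 of 8 H3K4me3 lists, and JPX in 7. NEAT1, which builds nuclear paraspeckles, and MALAT1 are neighbours on chromosome 11, and the corrected list holds the start of MALAT1 and not that of NEAT1.

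The other 3 of the 4 widest distal peaks were unlike each other. One of 7267 bases on chromosome 6, with its midpoint in the non-coding gene ENSG00000227706, had a value of 55.7 and was held by all 8 lists, with 79.6 at its midpoint in Abclonal A2357. One of 7494 bases in an intron of a coding gene, 42.5 kb from the CLTCL1 TSS, had a value of 8.02 and was held by ab8580 and EMD Millipore 07-473. One of 6840 bases on chromosome 21, 0.853 kb from the ribosomal RNA gene RNA5-8SN2, had a value of 0.4999, was held by ab8580 alone, and has a midpoint word that occurs 7 times in the genome. Over all distal peaks 13.0% had a midpoint word that occurs more than once, against 11.4% of other corrected peaks.

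High values also occurred without other antibodies. The 4 highest-valued distal peaks held by 0 of the 6 lists had values of 31.8 (34.1 kb from EIF1B), 31.5 (nearest to PRDM9), 31.5 (11.2 kb from GGTLC2) and 31.2 (40.9 kb from ZNF627), and all 4 were held by ab8580. They were 201 to 304 bases wide. The midpoint word occurred 100 times in the genome for the PRDM9 peak, 9 times for the GGTLC2 peak and 2 times for the EIF1B peak. The ZNF627 peak, with a word that occurs 1 time, was the only one of the 4 that met corrected H3K4me1 (14.8) and H3K4me2 (30.5).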

How the data were processed

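H3K4 methylation was mapped in K562 cells with 17 antibodies. Per the submitters' processing notes, Bowtie2, SAMtools, bedtools, MACS2 and GRCh38 (hg38) were used; for versions, calling settings and the high-confidence rule the entry is: not given in the sources used here. The authors deposited 1 list of peak positions per antibody, so replicate antibodies were not pooled, and a signal value per peak in part of the lists (not in ab8580, Diagenode C15410003 and EpiGentek A-4033-050). No header names this value. It was taken as a calibrated modification density, a reading that stays uncertain because a few values exceed 100, and values of different lists are set side by side only as the authors' own. Depth per sample is unknown. Lists differ in length, and a longer list overlaps more peaks.

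Peaks off chromosomes 1 to 22 and X (139 of 48598) were left out. Distances used all TSSs of 19970 coding genes in GENCODE release 44, and overlap needed at least 1 base. Python 3.11.15, pandas 2.3.3, NumPy 2.4.6 and SciPy 1.17.1 were used. A list was the unit of each test. No label tells of cultures grown apart, and the p-values therefore speak of antibody-to-antibody spread in K562. The 5 exact permutation tests were adjusted together (Benjamini-Hochberg, threshold 0.05) and the script was tested on simulated data. Alternatives were 50% or midpoint overlap, higher values, other distances and TSS sets, all 8 lists, leaving out each list, 1 input or cycle number, and without chromosomes 13, 14 and X. The 3 added after seeing the data were a log2 ratio, RefSeq starts and RefSeq tRNA genes.

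The members, gene lists, tests and named peaks were chosen with earlier results of these data known. Named peaks were the 6 highest in value held by all 6 lists with a non-coding TSS, the 6 with none within 10 kb, the 4 widest, the 4 highest held by none, the highest-valued peak of 8 erythroid or growth genes, and listed non-coding genes with a peak. A few of the listed items are not reported here. tRNA genes and peaks were chosen after their values were seen.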

Additional observations from a re-analysis of the deposited data

Results flagged for a closer look

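Among 12 sets of values, each over the 6 H3K4me3 or 4 H3K4me1 lists not used in the correction, 5 had a list far from the others by Dixon's criterion, where chance alone sets about 1 in 20 sets apart. All 5 were the EMD Millipore 07-473 list. It held 8.29% of distal peaks, where the other 5 H3K4me3 lists held 0.553 to 0.816%, and 29.8% of the other corrected peaks, against 19.9 to 23.4%. It held 18.5% of distal peaks with a non-coding TSS, against 6.09 to 7.92% in the other lists, and 7.84% of those without, against 0.309 to 0.502%. Its difference with minus without was 10.6 percentage points, against 5.78 to 7.42. Without it the mean share of distal peaks held was 0.658 ± 0.104% (SD, n = 5), and the difference, distal minus other, was -21.6 percentage points. The list is the longest of the 6 and covers 4.15% of the bases more than 5 kb from coding TSSs, where the other 5 cover 0.129 to 0.503%; the part of this coverage was not tested.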

How the results depend on the processing

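Of the 5 tests, 0 passed the adjusted threshold as planned and 2 had an unadjusted p under 0.05. Requiring the midpoint to be covered moved 4 past it, at -21.5 (distal minus other), 6.97 (with minus without a non-coding TSS), 11.5 (H3K4me1 against H3K4me3) and 5.39 points (H3K4me2 against H3K4me3). The first pair kept an unadjusted sign-flip p of 0.0312 there, as it did on the log2 ratio. Its adjusted p fell to 0.0391 only because the p of other tests in the joint adjustment fell. All 8 lists also moved the first pair past the threshold (-19.3 and 6.49), with sizes smaller than with the 6 lists. They include ab12209 and ab8580, from which the corrected peaks were computed, so this setting is not independent of the choice of members. Its unadjusted sign-flip p was the smallest that 8 lists allow. Canonical TSSs moved H3K4me1 against H3K4me3 past the threshold (22.7). The log2 ratio moved all 5 (-4.55, 3.73, 4.09, 2.76 and, turned in sign, -3.49). H3K4me1 against H3K4me3 turned to -3.06 beyond 10 kb. Its non-coding counterpart turned to -2.15 for values at or above the median, -8.97 for TSSs inside the peak and -1.43 for lncRNAs only. The percent of distal peaks with a non-coding TSS was 1.00 inside the peak, 15.3 within 5 kb, 2.27 for lncRNAs, 3.69 from the midpoint, 4.86 with RefSeq starts and 4.33 with tRNA genes. Within the H3K4me3 lists the sizes in percentage points also moved, with the sign kept. Distal minus other ran from -15.4 beyond 10 kb to -45.9 against only those peaks within 1 kb of a coding TSS. With minus without a non-coding TSS ran from 2.63 for TSSs within 5 kb to 27.02 for TSSs inside the peak. The cause of these changes in size and sign was not tested.

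Leaving out 1 list gave -21.99 to -21.3 and 6.61 to 7.58 points for the tests within H3K4me3, -1.98 (without Active Motif 39635) to 5.73 for H3K4me1, 0.697 to 7.23 for H3K4me2, and -0.0879 (without Thermo Fisher 710795) to 3.73 for the non-coding difference. Within the AR16 input (4 lists) distal minus other was -22.3 and with minus without 7.94, and within AR17 (2 lists) -20.0 and 5.96; with 8 cycles they were -21.0 and 7.49 and with 12 cycles -22.6 and 6.86. The number of distal peaks stayed between 30983 and 42743. No paired analysis was possible between targets because replicate numbers only name antibodies. The sign-flip tests within H3K4me3 used the difference between 2 shares of the same list. Overlaps depend on list length, and depth is unknown.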
